A study of Mus musculus with 24 samples.

Results

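The transcription factor genes Sox2, Sox9 and Hes1, the calcium-binding protein gene S100b and the RNA-binding protein gene Rbpms mark stem cells and folliculostellate cells of the pituitary. They were taken by their mouse symbols from a raw count table of 24 pituitary libraries, and make 5 of its 35191 genes. All 5 passed the filter on low counts, which left 21927 genes for testing. The study addressed the sex difference in pituitary gene expression of mice with a conditional knockout of Egr1 (Egr1cKO) and of their controls. Egr1 is an immediate early gene whose protein is a zinc-finger transcription factor. The groups were Egr1cKO (genotype FF (+), read as floxed Egr1 with Cre), Egr1cKO control (FF (-), floxed without Cre), Cre control (wt (+), Cre without the floxed gene) and complete wild type (wt (-)), each in females and in males with 3 libraries. All were pituitary polyA RNA sequenced without strand, although the labels give the cell type as endocrine. The sources used here give neither the Cre driver nor the exon removed, the age of the mice or any pooling of animals. Nothing says that the libraries of a group came from separate animals, so each p-value reflects only the spread among these samples.

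Folliculostellate cells are the non-endocrine, star-shaped cells of the anterior lobe, joined by gap junctions and arranged around small follicles. A part of them, with cells that line the cleft between the anterior and the intermediate lobe, are SOX2-positive stem cells that can give rise to hormone cells. SOX2 and SOX9 are HMG-box transcription factors of these cells, HES1 is a repressor that Notch signalling switches on and that holds progenitors undifferentiated, S100B is the classical folliculostellate antigen, and RBPMS binds RNA. In Notch signalling, ligands of the Delta and Jagged families on one cell activate receptors on its neighbour, and the freed receptor fragment joins RBPJ on target genes such as Hes1. S100b, Sox9 and Sox2 also mark glia and the pituicytes of the posterior lobe, so in RNA of the gland they mark more than 1 cell type. In bulk RNA, fewer cells of a type and less RNA per cell cannot be told apart.

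Total counts ranged from 15486069 to 26255343 per library, and the sex label matched sex-linked expression in 24 of 24 libraries. Levels are CPM, read counts relative to a library total scaled by the trimmed mean of M values (TMM). Pituitary hormone genes were abundant in every library, with 41098 to 374358 CPM for Gh and 3046 to 151155 CPM for Prl. Egr1 itself was detected in all 24 libraries. It measured 58.3 to 238 CPM in male Egr1cKO, against 22.7 to 51.1 CPM in male Egr1cKO control, and 7.55 to 162 CPM in female Egr1cKO, against 9.79 to 34.2 CPM in female Egr1cKO control. In Cre control it measured 25.3 to 486 CPM in males and 61.7 to 486 CPM in females, against 19.1 to 51.5 CPM in male and 10.9 to 167 CPM in female wild type. Whether an exon was lost cannot be read from counts summed over a gene. Floxed and unfloxed libraries were numbered in 2 separate series, so those groups cannot be told apart from their series, while each comparison of Cre with no Cre lies within 1 series. A pair of libraries stood apart. Female wild type replicate 1 had a mitochondrial share of counts of 10.1%, against 2.14% and 2.7% in the other replicates of its group, and male Egr1cKO control replicate 2 had the highest Gfap level of the series, 18.4 CPM, beside 2.64 CPM of Sox10.

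Among themselves the markers differed in level and in steadiness. Per kilobase of exonic sequence, Sox2 was the most abundant at 28.2 ± 6.44 CPM per kb, followed by Rbpms at 19.5 ± 5.16, Hes1 at 9.56 ± 2.76, Sox9 at 3.92 ± 1.37 and S100b at 1.82 ± 1.40 CPM per kb (SD, n = 24). Sox2 was also the steadiest, with 762 to 2092 counts and a highest level 2.66 times the lowest. S100b was the scarcest and most scattered, with 5 to 206 counts and a highest level 27.3 times the lowest, so its comparisons are the least precise. In GRCm38 coordinates Sox2 (ENSMUSG00000074637) lies on chromosome 3 at 34650405 to 34652461, Sox9 (ENSMUSG00000000567) on chromosome 11 at 112782224 to 112787760, and Hes1 (ENSMUSG00000022528) on chromosome 16 at 30064384 to 30067796, each on the plus strand. S100b (ENSMUSG00000033208) lies on the plus strand of chromosome 10 at 76253853 to 76261159, and Rbpms (ENSMUSG00000031586) on the minus strand of chromosome 8 at 33782643 to 33929863. The span of Sox2 meets that of Sox2ot, the span of S100b that of Dip2a and the span of Rbpms those of 2 predicted genes, but no exonic base of the 5 genes was shared with another annotated gene.

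The promoters are shown because EGR1, the factor the study deletes, and RBPJ, the DNA-binding partner of Notch receptors, are each known to bind a short motif. RefSeq windows of 300 bases (250 before and 50 after the start, build GRCm38.p6) were matched for 2 of the 5 markers, Sox2 and S100b. Capitals mark the GC box GGGCGG and the CCAAT box, and matches on the other strand read CCGCCC and ATTGG.
Sox2, chr3:34649745-34650044, plus strand: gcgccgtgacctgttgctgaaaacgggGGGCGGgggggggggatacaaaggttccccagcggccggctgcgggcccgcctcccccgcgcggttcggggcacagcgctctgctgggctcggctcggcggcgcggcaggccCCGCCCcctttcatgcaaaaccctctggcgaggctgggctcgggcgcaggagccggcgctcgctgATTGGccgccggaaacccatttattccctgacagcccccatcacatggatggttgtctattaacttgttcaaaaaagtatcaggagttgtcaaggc
S100b, chr10:76253586-76253885, plus strand: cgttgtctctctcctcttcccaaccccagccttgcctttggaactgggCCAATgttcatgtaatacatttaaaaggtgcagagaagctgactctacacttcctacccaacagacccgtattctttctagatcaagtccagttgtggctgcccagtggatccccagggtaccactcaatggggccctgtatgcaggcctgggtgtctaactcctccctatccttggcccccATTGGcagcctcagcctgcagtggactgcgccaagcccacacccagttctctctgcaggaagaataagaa
The Sox2 window held 66.3% G and C and 27 CpG, with 2 GC boxes and 1 CCAAT box, and it ends before the start that the GENCODE M21 annotation gives for Sox2. The S100b window held 53.7% G and C and 3 CpG, with 0 GC boxes and 2 CCAAT boxes, beside medians of 52.7% and 7 CpG over 32851 RefSeq windows. The letters GCGNGGGCG, the core EGR1 motif, were found on neither strand of either window, and 5.55% of all windows hold them. The RBPJ core TGGGAA had 0 matches in the Sox2 window and 1 in the S100b window, and 25.6% of all windows hold it. GC boxes stand in 35.7% and CCAAT boxes in 37.4% of all windows. These matches describe the letters in the windows and say nothing about binding.

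Sox2 was higher in the libraries that carry Cre, in both sexes and with or without the floxed gene. In males it measured 65.3, 60.9 and 71.5 CPM in Egr1cKO, against 47.6, 54.5 and 42.4 CPM in Egr1cKO control. In females it measured 87.5, 53.3 and 65.6 CPM in Egr1cKO, against 46.0, 49.2 and 36.3 CPM in Egr1cKO control. Without the floxed gene the order was the same, since all Cre control libraries lay above their wild type libraries. Male Cre control had 63.4, 61.6 and 66.5 CPM, against 47.0, 60.1 and 32.9 CPM in male wild type. Female Cre control had 62.9, 78.3 and 74.2 CPM, against 59.1, 43.4 and 61.0 CPM in female wild type. Both unfloxed gaps were narrow, at 61.6 against 60.1 CPM in males and 62.9 against 61.0 CPM in females. In 4 of 4 pairs of groups, every library with Cre was above every library without it. That held for 26 of the 21927 genes tested, or 0.119%. Within a single pair, 10.8% of genes were so separated upward in Egr1cKO males, 9.57% in Egr1cKO females, 11.1% in Cre control males and 8.02% in Cre control females.

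**Figure D1:**
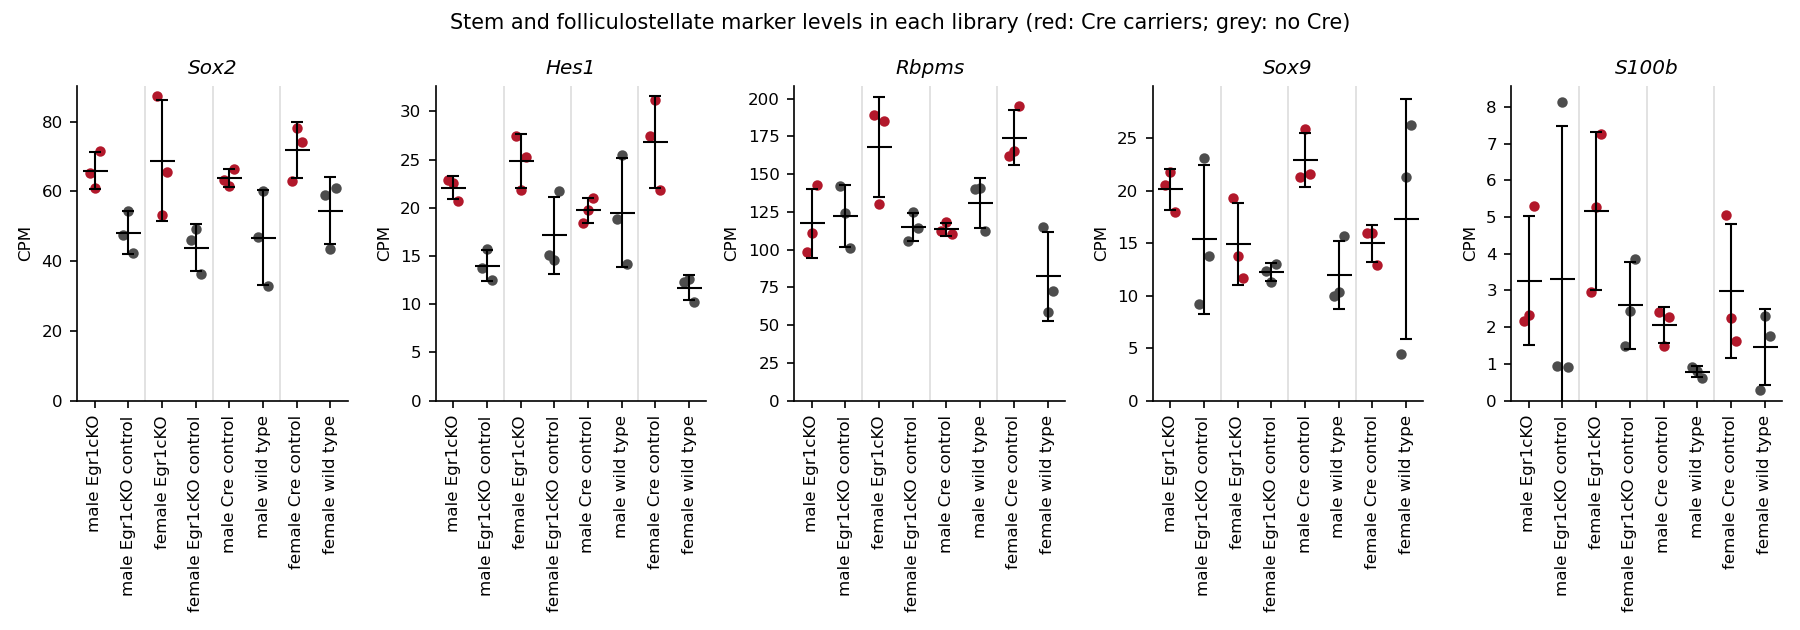
Level of each marker in CPM (vertical axes) in the 24 libraries (points) of the 8 groups, with bars for the mean and SD of 3 libraries; the SD of S100b in male Egr1cKO control is drawn only down to 0. Every Sox2 point of a group with Cre lies above every point of the group without Cre beside it.

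Over the 12 libraries with Cre, Sox2 had a lowest, median and highest level of 53.3, 65.4 and 87.5 CPM, against 32.9, 47.3 and 61.0 CPM over the 12 libraries without it. All but 2 libraries with Cre exceeded the highest library without it, that is 10 of 12. That count was 6 for Rbpms, 3 for Hes1 and 0 for Sox9 and S100b, and it was not computed over all genes. The contrast of Cre carriers with non-carriers is the mean of the 4 pairwise effects in a model with a mean for each group. In it Sox2 rose by 0.49 on the log2 scale (SE 0.102, 95% interval 0.27 to 0.70, edgeR quasi-likelihood test with Benjamini-Hochberg adjustment over all genes, adjusted p = 0.00326). Each single effect rests on 6 libraries, and none passed for Sox2. The Egr1cKO effect was 0.65 in females (SE 0.205, edgeR adjusted p = 0.087) and 0.45 in males (SE 0.204, edgeR adjusted p = 0.727). The Cre effect was 0.40 in females (SE 0.204, edgeR adjusted p = 0.329) and 0.45 in males (SE 0.205, edgeR adjusted p = 0.428). All 4 point estimates were positive. In order of group means the 4 groups with Cre took the 4 highest places, led by female Cre control at 71.8 ± 7.93 CPM, and female Egr1cKO control was lowest at 43.8 ± 6.69 CPM (SD, n = 3). Of the 7 neighbouring pairs in that order, only male Cre control (63.8 ± 2.46 CPM) and female wild type (54.5 ± 9.67 CPM) did not overlap.

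Hes1, the Notch-driven repressor, was also higher with Cre, except between the unfloxed male groups. Female Cre control had 27.5, 31.2 and 21.8 CPM, against 12.3, 12.6 and 10.2 CPM in female wild type, with no overlap (8.02% of all genes were so separated upward). This was the widest gap of Hes1, a log2 fold change of 1.20 (SE 0.223, 95% interval 0.73 to 1.67, edgeR adjusted p = 0.00833), and it passed the test. In male Cre control Hes1 had 18.4, 19.8 and 21 CPM, inside the spread of the 18.8, 25.5 and 14.2 CPM in male wild type. There the log2 fold change was 0.02 with a 95% interval of -0.45 to 0.49 (edgeR adjusted p = 0.991), which allows a change up to those sizes either way. In the floxed groups both sexes showed a gap. Male Egr1cKO had 22.9, 22.6 and 20.7 CPM, against 13.8, 15.7 and 12.5 CPM in male Egr1cKO control (log2 fold change 0.65, SE 0.222, edgeR adjusted p = 0.55). Female Egr1cKO had 27.4, 21.8 and 25.3 CPM, against 15.1, 14.6 and 21.7 CPM in female Egr1cKO control (log2 fold change 0.53, SE 0.221, edgeR adjusted p = 0.186). Neither passed, though the libraries did not overlap, where 10.8% of all genes in males and 9.57% in females were so separated upward. In females the gap was narrow, at 21.8 CPM in the lowest Egr1cKO library and 21.7 CPM in the highest control library.

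Over all carriers Hes1 had a lowest, median and highest level of 18.4, 22.2 and 31.2 CPM, against 10.2, 14.4 and 25.5 CPM in non-carriers. It rose by 0.60 on the log2 scale (SE 0.111, 95% interval 0.37 to 0.84, edgeR adjusted p = 0.00104). All 12 carriers lay above the median of the non-carriers, and 3 lay above the highest non-carrier. Above that median also lay 12 carriers for Sox2, 8 for Rbpms, and 12 for S100b and 11 for Sox9, which were not called. As for Sox2, the 4 groups with Cre had the 4 highest means, here led by female Cre control (26.8 ± 4.74 CPM), and female wild type was lowest (11.7 ± 1.34 CPM; SD, n = 3). No neighbouring groups in the order of Hes1 means were free of overlap.

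Rbpms, whose protein binds RNA and is best known from smooth muscle and retinal ganglion cells, was higher with Cre in both female pairs and overlapped in both male pairs. Female Cre control had 162, 165 and 195 CPM, against 115, 58.9 and 72.8 CPM in female wild type. Female Egr1cKO had 189, 130 and 185 CPM, against 106, 125 and 114 CPM in female Egr1cKO control. Neither female pair overlapped, where 8.02% (Cre control) and 9.57% (Egr1cKO) of all genes were so separated upward. In females the Cre effect was a log2 fold change of 1.08 (SE 0.209, 95% interval 0.64 to 1.53, edgeR adjusted p = 0.0107) and passed, while the Egr1cKO effect was 0.55 (SE 0.209, edgeR adjusted p = 0.154) and did not. In males the levels ran together. Male Cre control had 112, 118 and 110 CPM, against 140, 141 and 112 CPM in male wild type (log2 fold change -0.21, 95% interval -0.66 to 0.23, edgeR adjusted p = 0.77). Male Egr1cKO had 98.5, 111 and 143 CPM, against 142, 124 and 101 CPM in male Egr1cKO control (log2 fold change -0.05, SE 0.209, edgeR adjusted p = 1). Over all carriers Rbpms had a median of 137 CPM and a range of 98.5 to 195 CPM, against a median of 115 CPM and a range of 58.9 to 142 CPM in non-carriers. The log2 fold change of 0.34 (SE 0.104, 95% interval 0.12 to 0.56, edgeR adjusted p = 0.0466) passed narrowly, and it kept its call in 4 of 24 fits that each left out 1 library, with edgeR adjusted p up to 0.101.

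Sox9, the SoxE factor that accompanies Sox2 in stem cells, was not called in any comparison. Its clearest gap was in unfloxed males, where Cre control had 21.3, 25.9 and 21.6 CPM, against 9.94, 10.3 and 15.7 CPM in wild type. These libraries did not overlap, and the difference was 0.93 on the log2 scale (SE 0.387, edgeR adjusted p = 0.394). In that pair 11.1% of all genes were so separated upward. In unfloxed females the levels ran together, since Cre control had 16, 16 and 12.9 CPM, against 4.40, 21.3 and 26.2 CPM in wild type. The lowest of these is female wild type replicate 1. Male Egr1cKO had 20.5, 21.8 and 18.0 CPM, against 9.15, 23.1 and 13.8 CPM in male Egr1cKO control. Female Egr1cKO had 19.3, 13.8 and 11.7 CPM, against 12.3, 11.3 and 13 CPM in female Egr1cKO control. Both floxed pairs overlapped, with log2 fold changes of 0.29 in females (edgeR adjusted p = 0.749) and 0.39 in males (edgeR adjusted p = 0.965). Over all carriers the median was 18.7 CPM, against 12.6 CPM in non-carriers, or 0.35 on the log2 scale (SE 0.194, 95% interval -0.06 to 0.76, edgeR adjusted p = 0.307). With the mitochondrial share of each library as a covariate that value was 0.74 and passed (edgeR adjusted p = 0.000889), in a fit that called 4239 of 21927 genes. Over 34 alternatives Sox9 was called in 2, this fit included.

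S100b, the folliculostellate antigen gene, had the fewest counts of the 5, and none of its differences passed with all libraries in the fit. In male Cre control it had 2.4, 1.49 and 2.27 CPM, against 0.926, 0.808 and 0.623 CPM in male wild type, with no overlap and 1.39 on the log2 scale (SE 0.759, edgeR adjusted p = 0.528). In female Cre control it had 5.06, 2.24 and 1.63 CPM, against 0.297, 2.31 and 1.76 CPM in female wild type (log2 fold change 1.01, SE 0.741, edgeR adjusted p = 0.531). Only the male pair was free of overlap, and there 11.1% of all genes were so separated upward. Female Egr1cKO had 2.97, 5.26 and 7.25 CPM, against 1.49, 2.43 and 3.85 CPM in female Egr1cKO control (log2 fold change 0.99, SE 0.728, edgeR adjusted p = 0.498). Male Egr1cKO had 2.16, 2.33 and 5.29 CPM, against 0.949, 8.12 and 0.902 CPM in male Egr1cKO control (log2 fold change -0.03, SE 0.728, edgeR adjusted p = 1). The highest level of all, 8.12 CPM, is that of male Egr1cKO control replicate 2, the library with the high Gfap. Without it the male Egr1cKO effect was 1.81 (edgeR adjusted p = 0.605). Over all carriers S100b had a median of 2.37 CPM, against 1.22 CPM in non-carriers, a log2 fold change of 0.84 (SE 0.37, 95% interval 0.06 to 1.62, edgeR adjusted p = 0.183) that did not pass. Without that 1 library it was 1.30 and passed (edgeR adjusted p = 0.0178).

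**Figure D2:**
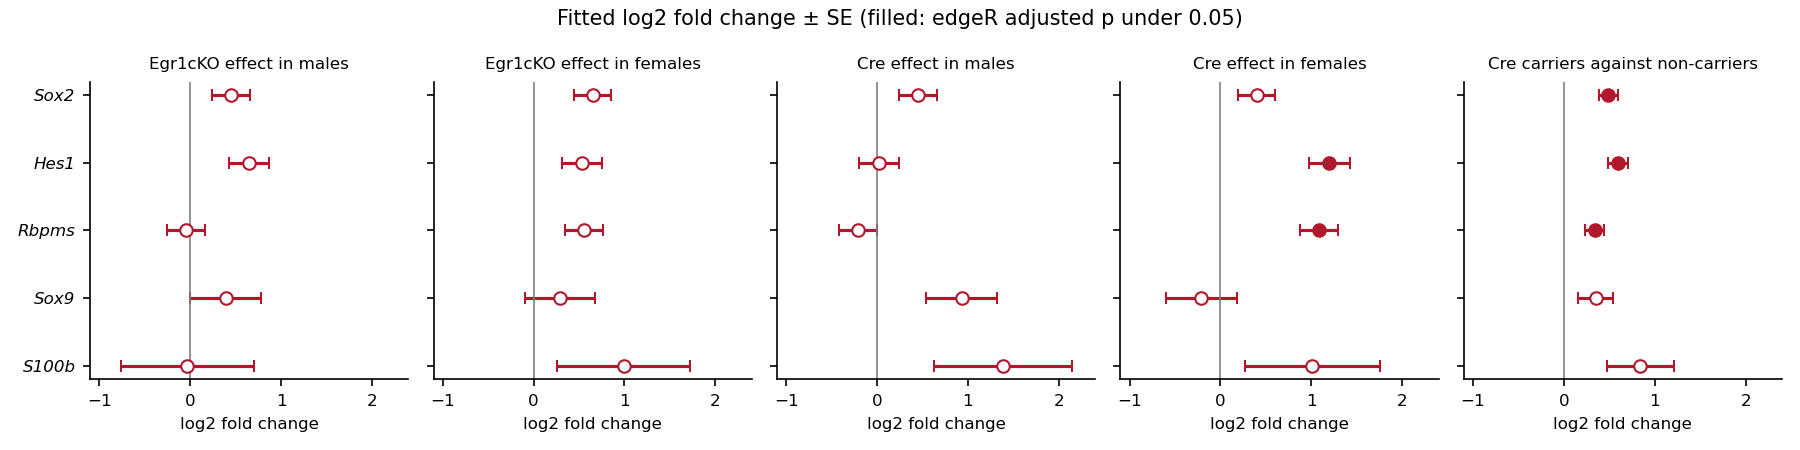
Fitted log2 fold change of each marker (horizontal axes) with its SE in the Egr1cKO and Cre effects of each sex and in carriers against non-carriers. Filled points passed the edgeR test at an adjusted p under 0.05. Sox2 lies between 0.40 and 0.65 in all 4 effects, while Rbpms is at 1.08 and 0.55 in females and at -0.21 and -0.05 in males.

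Counted together, 3 of the 5 markers (Sox2, Hes1 and Rbpms) were called higher and 0 lower in carriers against non-carriers, where 6.89% of all genes tested were called, 2.8% higher and 4.08% lower. The median log2 fold change of the 5 was 0.49, beside -0.03 over all genes. Of the single effects, the Cre effect in females called 2 of 5 (Hes1 and Rbpms), beside 1.21% of all genes, and 0.369% of all genes called higher, with a median of 1.01 for the markers and -0.04 for all genes. The Egr1cKO effect in females called 0 of 5 with edgeR, DESeq2 and limma voom, beside 2.21% of all genes called, and had 3 of 5 at an unadjusted edgeR p under 0.05, beside 19.3% of all genes, with medians of 0.55 and -0.05. The Egr1cKO effect in males called 0 of 5 with all 3 tools, beside 0.041% of all genes called, and had 2 of 5 at an unadjusted edgeR p under 0.05, beside 6.57% of all genes, with medians of 0.39 and 0.03. The Cre effect in males called 0 of 5 with all 3 tools, beside 0.233% of all genes called, and had 2 of 5 at an unadjusted edgeR p under 0.05, beside 10.8% of all genes, with medians of 0.45 and 0.01. Within the floxed groups alone, where carriers are Egr1cKO and non-carriers Egr1cKO control, Sox2 (0.55, edgeR adjusted p = 0.0335) and Hes1 (0.59, edgeR adjusted p = 0.0347) were called, beside 3.15% of all genes. Within the unfloxed groups alone none was called by edgeR, beside 1.04% of all genes, with Sox2 at 0.43 (edgeR adjusted p = 0.209) and Hes1 at 0.61 (edgeR adjusted p = 0.0578). Without both libraries that stood apart edgeR called 4 markers in carriers, with S100b (1.18, edgeR adjusted p = 0.0125) beside Sox2 (0.53), Hes1 (0.63) and Rbpms (0.42). The share of all genes called in that fit is not given here, so the count cannot be set beside it. With all libraries S100b was 0.84 (edgeR adjusted p = 0.183). Both libraries are non-carriers, with the highest (8.12 CPM) and the lowest (0.297 CPM) S100b level of the series. Leaving out the non-carrier with the highest level raises the S100b value by construction. These splits were added after the data were seen.

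The part of the Egr1cKO effect that goes beyond Cre compares the Egr1cKO effect with the Cre effect of the same sex. It called 0 of 5 markers in either sex with edgeR, DESeq2 and limma voom, beside 0.00456% of all genes in females and 0% in males. At an unadjusted edgeR p under 0.05 it had 1 marker in females, beside 9.81% of all genes, and 0 in males, beside 1.06%. For Sox2 the difference in males was 0.00 with a 95% interval of -0.61 to 0.61, and in females it was 0.25 (edgeR adjusted p = 0.831). For Hes1 the signs of the difference were opposite in the sexes. In females the Egr1cKO effect of 0.53 was smaller than the Cre effect of 1.20, a difference of -0.66 (SE 0.314, edgeR adjusted p = 0.493). In males the Egr1cKO effect of 0.65 was larger than the Cre effect of 0.02, a difference of 0.64 (SE 0.314, edgeR adjusted p = 1). For Rbpms in females the difference was -0.54 (SE 0.295, edgeR adjusted p = 0.562). Each of these intervals is wide enough to hold a difference of the size of the effects themselves.

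The sex difference of the Cre effect called none of the markers in edgeR, and Rbpms came closest. The Cre effect on Rbpms was 1.08 in females and -0.21 in males, a difference of 1.30 (SE 0.295, 95% interval 0.67 to 1.92) whose edgeR adjusted p of 0.0521 missed the threshold. Hes1 followed with 1.18 (SE 0.314, edgeR adjusted p = 0.0765), from 1.20 in females and 0.02 in males, and Sox9 ran the other way at -1.15 (SE 0.548, edgeR adjusted p = 0.272). In this comparison edgeR called 0 of 5 markers, beside 0.128% of all genes, while DESeq2 called 2 (Hes1 and Rbpms) and limma voom 1. At an unadjusted edgeR p under 0.05 there were 3 of 5 markers, beside 18% of all genes. Without female wild type replicate 1, edgeR called all 3, with Rbpms at 1.61, Hes1 at 1.21 and Sox9 at -1.60, in a fit that called 4339 of 23210 genes against 28 genes with all libraries. For the Egr1cKO effect, the sex difference of Rbpms was 0.60 (SE 0.295, edgeR adjusted p = 0.592). There edgeR, DESeq2 and limma voom called 0 of 5 markers, beside 0.0228% of all genes called, with 0 at an unadjusted edgeR p under 0.05, beside 8.44% of all genes.

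Female against male levels of Rbpms and Hes1 differed in sign between the genotypes. In Cre control Rbpms was 174 ± 18.2 CPM in females and 113 ± 4.55 CPM in males (log2 fold change 0.62, SE 0.209, edgeR adjusted p = 0.0823). In Egr1cKO it was 168 ± 33.0 CPM in females and 118 ± 23.2 CPM in males (0.51, SE 0.209, edgeR adjusted p = 0.0963; SD, n = 3 each). In the groups without Cre, Rbpms was not higher in females. It was 82.3 ± 29.3 CPM in female and 131 ± 16.4 CPM in male wild type (-0.67, SE 0.209, edgeR adjusted p = 0.267), and 115 ± 9.20 CPM in female and 122 ± 20.2 CPM in male Egr1cKO control (-0.09). Hes1 was 11.7 ± 1.34 CPM in female and 19.5 ± 5.70 CPM in male wild type (-0.74, SE 0.223, edgeR adjusted p = 0.241), and 26.8 ± 4.74 CPM in female and 19.7 ± 1.33 CPM in male Cre control (0.44, SE 0.221, edgeR adjusted p = 0.225). It was 0.29 in Egr1cKO control (edgeR adjusted p = 0.623) and 0.17 in Egr1cKO (edgeR adjusted p = 0.658). Only wild type was negative for Hes1, so its sign did not follow Cre. None of these passed, so no difference between the sexes was shown within a genotype. In edgeR, 0 of 5 markers were called between the sexes in any genotype, where 0.283% of all genes were called in wild type, 3.61% in Cre control, 0.451% in Egr1cKO control and 13.1% in Egr1cKO. At an unadjusted p under 0.05 there were 2 markers in wild type, beside 7.03% of all genes, and 1 in Cre control, beside 23.6%. There were 0 in Egr1cKO control, beside 13.8% of all genes, and 1 in Egr1cKO, beside 31.1%. DESeq2 called 1 marker, Rbpms in Cre control, and limma voom 0. Averaged over genotypes, the female minus male values were between -0.21 (Sox9) and 0.43 (S100b), with 0 called by edgeR, DESeq2 or limma voom beside 21.7% of all genes called by edgeR, and 0 at an unadjusted edgeR p under 0.05, beside 34.9% of all genes.

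Of the wider list of 28 stem and folliculostellate genes, which includes the 5, 9 were higher and 0 lower in carriers, with a median of 0.30. Of all genes tested, 2.8% were called higher and 4.08% lower. Cd9, a tetraspanin gene known from SOX2-positive cells of the rat gland, rose by 0.68 on the log2 scale (SE 0.116, edgeR adjusted p = 0.000528), with 51.9 to 153 CPM in carriers and 48.5 to 82.6 CPM in non-carriers. Wwtr1 (0.78, edgeR adjusted p = 0.00108) and Yap1 (0.42, edgeR adjusted p = 0.00375) encode TAZ and YAP, the Hippo pathway coactivators active in pituitary stem cells. The epithelial keratin genes Krt18 (0.62, edgeR adjusted p = 0.0111) and Krt8 (0.59, edgeR adjusted p = 0.0173) and the retinoic acid synthesis gene Aldh1a2 (0.30, edgeR adjusted p = 0.0497) completed the 9. Aldh1a2 kept its call in 5 of 24 fits without 1 library, with edgeR adjusted p up to 0.109. Yap1, the keratins and Aldh1a2 were named after their values were seen. Among the 19 not called were the epithelial adhesion gene Epcam (-0.04) and Prom1 (0.52, edgeR adjusted p = 0.289). The summed level of the list was 1808 to 2485 CPM in carriers (median 2206), against 1320 to 2201 CPM in non-carriers (median 1951), with wide overlap. Of the 28, edgeR called 8 without both libraries that stood apart, 5 within the floxed and 1 within the unfloxed groups. Of all genes it called 3.15% within the floxed and 1.04% within the unfloxed groups, and the share without both libraries is not given here. With the mitochondrial covariate it called 14 higher and 1 lower, in a fit that called 4239 of all 21927 genes, against 1510 without the covariate. In single effects edgeR called 3 of the 28 higher in Cre control females (Hes1, Rbpms and Cd9 at 1.10, adjusted p = 0.0174), beside 0.369% of all genes. It called 2 in Egr1cKO females (Cd9 at 0.98, adjusted p = 0.0249, and Krt18 at 1.20, adjusted p = 0.0352), beside 2.21% of all genes in either direction. In males it called 0, beside 0.041% of all genes in the Egr1cKO effect and 0.233% in the Cre effect. At an unadjusted edgeR p under 0.05 there were 5 in each male effect, beside 6.57% and 10.8% of all genes. Leaving out 1 library moved these counts between 0 and 5 in Cre control females and between 0 and 3 in Egr1cKO females. Cd9 kept its call in 2 of 6 such fits of the Cre effect and 3 of 6 of the Egr1cKO effect, and Krt18 in 2 of 6.

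In the Notch pathway, the ligand genes Dll3 and Jag1 were called, while the ligand genes Dll1, Dll4 and Jag2 and the receptor genes were not. Of 16 ligand, receptor and modifier genes, edgeR called 3 higher and 0 lower in carriers, with a median of 0.25. Of all genes, 2.8% were called higher and 4.08% lower. The count was 2 to 5 without 1 library and 0 within the unfloxed groups. Dll3, a Delta-like ligand that acts inside its own cell, rose by 1.14 (SE 0.199, adjusted p = 0.000718), with 15.1 to 35.9 CPM in carriers and 4.48 to 19.0 CPM in non-carriers. Jag1, a ligand presented to neighbours, rose by 0.68 (SE 0.157, edgeR adjusted p = 0.00711), with 6.96 to 18.2 CPM in carriers and 4.01 to 10.6 CPM in non-carriers. Mfng, a Fringe enzyme that modifies receptors, rose by 0.45 (edgeR adjusted p = 0.042) and kept its call in 8 of 24 fits without 1 library. The receptors Notch1 (0.04), Notch2 (0.08), Notch3 (0.26) and Notch4 (-0.22) and the partner Rbpj (-0.06) were not called. Of 9 target and Hes family genes, 8 were tested and 2 were higher, Hes1 and Hes7 (1.39, SE 0.378, edgeR adjusted p = 0.0253), the call of Hes7 holding in 19 of 24 fits without 1 library. Hes7 is best known from the somite clock. The other classical targets Heyl (0.35, edgeR adjusted p = 0.147), Hey1 (0.14) and Hey2 (0.14) were not called.

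**Figure D3:**
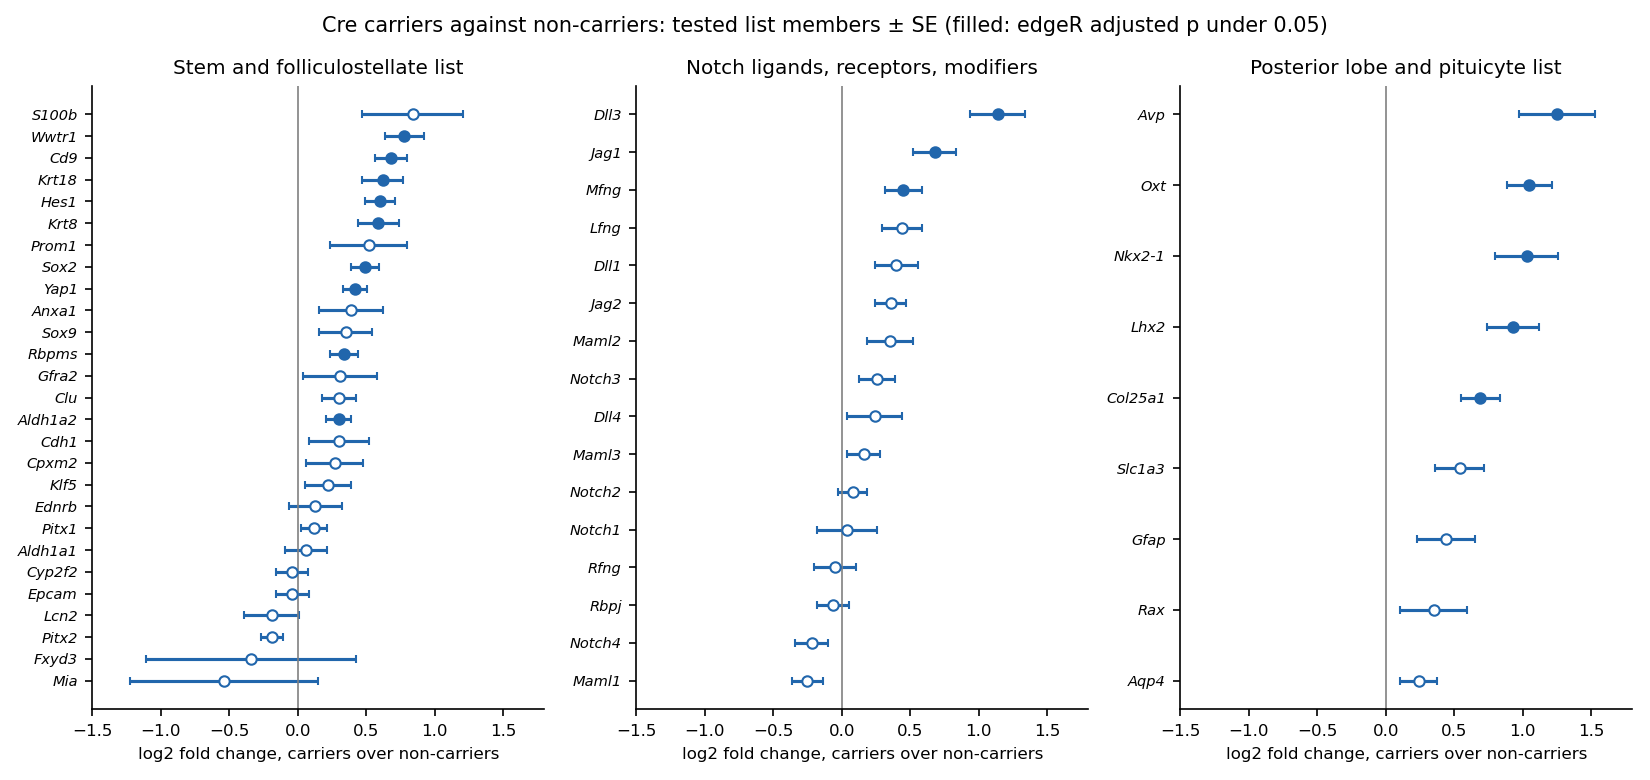
Fitted log2 fold change with its SE (horizontal axes) of tested genes of the stem and folliculostellate list, the Notch ligand, receptor and modifier list and the posterior lobe list, in carriers against non-carriers; filled points passed the edgeR test. The called genes are 9 of 28 (of which 1 that was not called is not drawn), 3 of 16 and 5 of 9, and all lie above 0.

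Relatives of the markers by family are given beside the 2.8% of all genes called higher and 4.08% called lower in carriers. Of the 6 SoxB1 and SoxE genes, Sox2 alone was called by edgeR in carriers. Sox10, the Schwann and oligodendrocyte factor, had 1.28 (SE 0.484, edgeR adjusted p = 0.113), with 0.462 to 3.18 CPM in carriers and 0 to 2.64 CPM in non-carriers. Of the 12 S100 genes, 10 were tested and 1 was called, S100a16, at 0.80 (SE 0.119, edgeR adjusted p = 9.43e-05), with 27.6 to 53.9 CPM in carriers and 17.0 to 35.5 CPM in non-carriers. S100a16 was also called in Egr1cKO females (1.25, edgeR adjusted p = 0.00614). Rbpms2, the close paralogue of Rbpms, had 0.50 (edgeR adjusted p = 0.539) and was not called.

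Markers of other cells moved with the same contrast, in which 2.8% of all genes were called higher and 4.08% lower. Of 9 posterior lobe and pituicyte genes, 5 were higher and 0 lower in carriers, with a median of 0.69. They were the neurohypophysial hormone genes Oxt (1.05, edgeR adjusted p = 0.000235) and Avp (1.25, edgeR adjusted p = 0.00816), the pituicyte factors Lhx2 (0.93, edgeR adjusted p = 0.00303) and Nkx2-1 (1.03, edgeR adjusted p = 0.00659), and Col25a1 (0.69, edgeR adjusted p = 0.0035). Avp was named after its values were seen. The summed level of the 9 genes was 341 to 383 CPM in female Cre control, against 242 to 281 CPM in female wild type, and 388 to 524 CPM in female Egr1cKO, against 221 to 238 CPM in female Egr1cKO control. In males it was 182 to 279 CPM in Cre control, against 110 to 182 CPM in wild type, and 265 to 299 CPM in Egr1cKO, against 89.8 to 242 CPM in Egr1cKO control. The hormone genes Avp and Oxt and the pituicyte genes Rax, Nkx2-1 and Lhx2 were above 0 in all 24 libraries, with 2.57 to 30.8 CPM for Rax. Of the 9 genes, edgeR called 7 without both libraries that stood apart, 4 within the floxed and 0 within the unfloxed groups. The shares of all genes were 3.15% within the floxed and 1.04% within the unfloxed groups, and the share without both libraries is not given here. The part of posterior lobe tissue, where Sox2, Sox9 and S100b are also expressed, in the results of the markers was not tested.

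Of the 5 melanotrope and corticotrope genes, 4 were higher in carriers, with a median of 0.79: the prohormone convertase gene Pcsk2 (1.58, edgeR adjusted p = 0.000573), the hormone precursor Pomc (1.44, edgeR adjusted p = 0.0022), Tbx19 (0.60, edgeR adjusted p = 0.00594) and Pax7, the melanotrope selector (0.79, edgeR adjusted p = 0.00681). Their summed level was 30679 to 226869 CPM in carriers, against 7512 to 48775 CPM in non-carriers. All 6 somatotrope, lactotrope and thyrotrope genes were called, 4 lower and 2 higher, with a median of -1.05. Lower were Prl (-2.17, edgeR adjusted p = 8.90e-08), Ghrhr (-1.27, edgeR adjusted p = 0.000111), Pou1f1 (-0.97, edgeR adjusted p = 0.00015) and Gh (-1.13, edgeR adjusted p = 0.000749). Higher were the thyrotrope genes Tshb (0.93, edgeR adjusted p = 6.93e-05) and Trhr (0.80, edgeR adjusted p = 0.00746), and of 4 gonadotrope genes the subunit gene Cga (0.64, edgeR adjusted p = 0.029). Scaling sets where 0 lies in such a comparison, and the median log2 fold change over all genes was -0.03 with TMM scaling and 0.10 with total counts only. With total counts only, Sox2 was 0.63, Hes1 0.74 and Rbpms 0.48, and all 3 were still called.

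The lists of further cell types had at most 2 called members each, beside 6.89% of all genes called. Of 8 endothelial genes Emcn was higher (0.34, edgeR adjusted p = 0.0352), with a list median of 0.20 and summed levels of 162 to 313 CPM in carriers and 144 to 275 CPM in non-carriers. Of 8 fibroblast and mural genes Dcn was higher (0.68, edgeR adjusted p = 0.00151) and Col1a2 lower (-0.77, edgeR adjusted p = 0.000151), with a median of 0.32 and sums of 393 to 629 CPM in carriers and 420 to 703 CPM in non-carriers. Of 8 macrophage and leukocyte genes C1qa was higher (0.52, edgeR adjusted p = 0.028), with a median of 0.34 and sums of 104 to 184 CPM in carriers and 80.1 to 136 CPM in non-carriers. Of 7 tested Schwann and oligodendrocyte genes edgeR called 0, with 4 at an unadjusted p under 0.05, beside 21.4% of all genes. Their median was 1.20, with sums of 56.8 to 138 CPM in carriers and 51.4 to 133 CPM in non-carriers. The myelin gene Mog was at 0 in 9 libraries and Olig2 in 6. Of 6 proliferation genes edgeR called 0, with a median of -0.29 and 3 at an unadjusted p under 0.05, beside the same 21.4% of all genes. Among them Mcm2 had the smallest p (0.43, adjusted p = 0.0575). The mitochondrial share of counts was 8.73% to 10.4% in female Egr1cKO, against 3.5% to 6.87% in female Egr1cKO control, and 5.52% to 6.69% in female Cre control, against 2.14% to 10.1% in female wild type. In males it was 2.76% to 3.79% in Egr1cKO, against 2.20% to 3.55% in Egr1cKO control, and 2.08% to 3.20% in Cre control, against 2.08% to 4.80% in wild type. The part of these differences in the markers' results was not tested, beyond fits with the share as a covariate, in which Sox2, Hes1 and Sox9 were called and Rbpms was not (0.22, edgeR adjusted p = 0.0659), among 4239 called genes of 21927.

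Across the 24 libraries, 10 pairs of markers were correlated on log2 CPM, with permutation p-values adjusted over the 10. Hes1 and Rbpms were the closest pair (Pearson r = 0.68, permutation adjusted p = 0.0025; Spearman rho = 0.58, permutation adjusted p = 0.0166). Without female wild type replicates 1 and 3, the libraries farthest from the median of Hes1, r was 0.63. It was 0.47 within the 12 floxed and 0.79 within the 12 unfloxed libraries. Sox2 and Hes1 had r = 0.56 (permutation adjusted p = 0.0196) and rho = 0.62 (permutation adjusted p = 0.0154), with r = 0.68 without the 2 extreme libraries, 0.65 in the floxed and 0.52 in the unfloxed libraries. Sox2 and Rbpms had r = 0.48 (permutation adjusted p = 0.0433) and rho = 0.48 (permutation adjusted p = 0.0636), with r = 0.55 without the 2 extreme libraries, 0.60 in the floxed and 0.46 in the unfloxed libraries. Sox9 and S100b had r = 0.50 (permutation adjusted p = 0.0433) and rho = 0.35 (permutation adjusted p = 0.154). That relation rested on male Egr1cKO control replicate 1 and female wild type replicate 1, since r was 0.20 without them, with 0.37 in the floxed and 0.70 in the unfloxed libraries. Once the group means were removed, no pair had an adjusted p under 0.05, with r = 0.17 for Hes1 and Rbpms (permutation adjusted p = 0.652), 0.34 for Sox2 and Hes1 (0.646), 0.60 for Sox2 and Rbpms (0.16) and 0.59 for Sox9 and S100b (0.367).

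**Figure D4:**
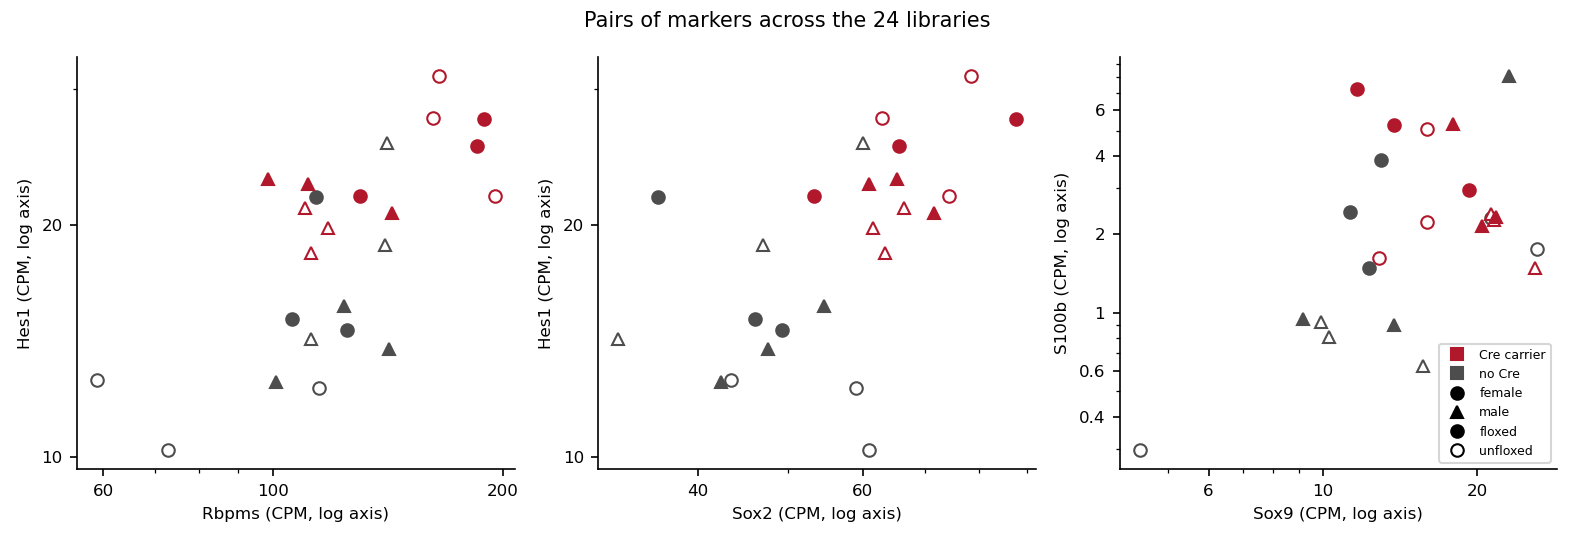
Levels in CPM on log axes of Hes1 against Rbpms, Hes1 against Sox2 and S100b against Sox9 in the 24 libraries; red marks Cre carriers and grey non-carriers, circles females and triangles males, filled symbols floxed and open symbols unfloxed groups. Carriers lie to the upper right for Hes1 and Sox2, and the lone point at the lower left of the last panel is female wild type replicate 1 at 4.40 CPM of Sox9 and 0.297 CPM of S100b.

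The genes most like each marker across the 24 libraries were found by Pearson r of log2 CPM among 11661 genes of at least 5 CPM on average (11662 for S100b). For Sox2 they were Epb41l3 (r = 0.84), Spry1 (0.82) and Epb41l4b (0.82), and for Sox9 they were Pygl (0.88), Astn1 (0.87) and Ahcyl2 (0.87). For S100b they were Wwtr1 (0.81), Htra1 (0.78) and Cysltr1 (0.78), and for Hes1 they were Spry2 (0.79), Rgma (0.76) and Fkbp10 (0.76). Rbpms had the closest match of all, Mdk (0.91), the gene of the growth factor midkine, followed by Vegfa (0.84) and Capn2 (0.83). No marker was among the 3 most like another. With Spearman's rho the first 3 genes shared 1 with this list for Sox2, Sox9 and Rbpms and 2 for S100b and Hes1. With deviations from the group means they shared 1 for S100b and Rbpms and 0 for Sox2, Sox9 and Hes1. Mdk kept its place for Rbpms in all 3 measures (rho = 0.88, r of deviations = 0.88). These values share libraries, scaling and depth and describe likeness across these libraries.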

How the data were processed

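The authors deposited raw counts, whole numbers of reads per Ensembl gene not normalized. Per the submitters' processing notes, reads were handled with Trim Galore 3.8.2, FastQC and STAR 2.7.9 on GRCm38; the counting tool is not given in the sources used here. Per the labels' protocols, libraries were unstranded and made from total RNA purified with RNeasy. No 2 libraries repeated each other, since replicate pairs of 1 group had a chi-square of at least 16.3 per degree of freedom.

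The tests used edgeR 4.0.16 in R 4.3.3: filterByExpr kept 21927 genes, TMM scaled the libraries, and 1 model with 8 group means and 16 residual degrees of freedom gave 14 comparisons by the robust quasi-likelihood test, with Benjamini-Hochberg adjustment at 0.05. DESeq2 1.42.0 and limma 3.58.1 (voom) were alternatives, with other scalings, no filter, covariates, fits of 2 groups and fits without 1 library. The procedure was tested on simulated data. In the stem and folliculostellate list, 1 gene stays in the counts and is not reported here. The members and lists were chosen with earlier results of these data known. From each of 15 lists the rule named up to 4 called genes with the smallest p, or the first where none was called, and for likeness the 3 genes with the highest r. Exon lengths and positions came from GENCODE M21. Correlations used 1e+05 permutations and two-sided tests.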

Additional observations from a re-analysis of the deposited data

Results flagged for a closer look

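Rbpms was singled out because its levels with Cre seemed to differ between the sexes. Neither planned edgeR test of a sex difference called it (adjusted p = 0.0521 for the Cre effect and 0.592 for the Egr1cKO effect). After its levels had been seen, the sex difference of Cre carriage was averaged over the floxed and the unfloxed groups, which gives the female effect minus the male effect over all 24 libraries. That difference was 0.95 on the log2 scale (SE 0.209, edgeR adjusted p = 0.0269), where 2.06% of all genes tested were called and 0.748% in the positive direction. In the averaged contrast Hes1 had 0.53 (SE 0.222, edgeR adjusted p = 0.164) and Sox9 -0.62 (SE 0.388, edgeR adjusted p = 0.357), and neither was called. The Rbpms levels seen beforehand had all 3 libraries with Cre above all 3 without it in both female pairs, and overlap in both male pairs. Within a single female pair, 9.57% of all genes (Egr1cKO) and 8.02% (Cre control) were so separated upward. Because the contrast was chosen on these levels, its p is not independent evidence. The planned test on the unfloxed groups alone, 1.30, missed the threshold (edgeR adjusted p = 0.0521). The posterior lobe sum had a higher median with Cre in all 4 pairs, for example 366 CPM in female Cre control, against 274 CPM in female wild type. In males without the floxed gene it was 247 CPM in Cre control, against 140 CPM in wild type. The mitochondrial share was separated upward in female Egr1cKO, while female Cre control lay within the range of female wild type. The part of the posterior lobe sum and of the mitochondrial share in this averaged difference was not tested, and no covariate fit was made for it. Such fits were made for its components. For Rbpms the sex difference of the Egr1cKO effect, 0.60, had a lowest alternative of 0.16. Its highest edgeR adjusted p, 0.879, came with the mitochondrial covariate. The Egr1cKO effect in females, 0.55, had a lowest alternative of 0.06 and its highest edgeR adjusted p, 0.877, with that covariate. Alternatives for the sex difference of the Cre effect ran between 0.95 and 1.61.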

How the results depend on the processing

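Over 63 results and 1440 alternatives, 1271 kept the direction and the side of the threshold, 125 lost and 26 gained a call, and 18 turned the sign. The calls of Sox2 and Hes1 in carriers held in 24 of 24 fits without 1 library (edgeR adjusted p up to 0.00819 and 0.0035). Rbpms lost its call with RLE factors (0.32, edgeR adjusted p = 0.0673) and 20 of these 24 fits. The causes of the changes below were not tested.

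The number of markers called in carriers was 0 within the unfloxed groups, with SEs like those of the floxed groups, where it was 2. For the Cre effect in females it was 0 in a fit of the 2 groups and 0 to 2 without 1 library. There Hes1 kept its call in 4 of 6 fits (lost without Cre control replicate 2 or wild type replicate 3) and Rbpms in 3 of 6 (lost without wild type replicate 2 or 3 or Cre control replicate 3). With the mitochondrial share as a covariate, 1 marker was called in the Egr1cKO effect in females (Sox9, 1.42), 1 in the effect beyond Cre in females (Rbpms, -0.95), 1 in the sex difference of the Cre effect and 1 between the sexes in wild type (Rbpms, -0.88). In that order, this fit called 3081, 1846, 166 and 378 of all 21927 genes, against 484, 1, 28 and 62 without the covariate. Without 1 library the count was 0 to 1 beyond Cre in females (Rbpms, -0.85, without female wild type replicate 1), 0 to 3 for the sex difference of the Cre effect and 0 to 2 between the sexes in wild type. The sex difference of the Cre effect also called 1 marker with no filter, with genes detected as a covariate, with limma voom and when averaged over genotypes, and 2 with DESeq2. Of all genes, 1427 of 35191 were called with no filter and 70 of 21927 with genes detected. Between the sexes in Cre control, DESeq2 called 1 (Rbpms, 0.63) and the fit of 2 groups 1 (0.65).

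Signs turned as follows. For Sox9 in the Cre effect in females the values without 1 library ran between -0.67 and 0.21, and they were 0.39 with the mitochondrial covariate, 0.32 with genes detected, 0.01 with voom and 0.21 without wild type replicate 3. For Hes1 in the Cre effect in males they were -0.01 in the fit of 2 groups and ran between -0.17 and 0.25 without 1 library, with 0.00 and -0.17 without wild type replicates 1 and 3, and -0.02 without Cre control replicate 3. For Rbpms they were 0.12 with total counts only in the Cre effect in males, and in the Egr1cKO effect in males, where fits without 1 library ran between -0.22 and 0.07, 0.07 with total counts only, 0.06 with genes detected, 0.07 without Egr1cKO control replicate 1 and 0.05 without Egr1cKO replicate 1. Between the sexes in Egr1cKO, Rbpms was -0.13 with the mitochondrial covariate, against 0.51 without it. For S100b in the Egr1cKO effect in males they were 0.50 with voom and ran between -0.57 and 1.81 without 1 library, with 1.81 without Egr1cKO control replicate 2, and 0.18 and 0.15 without Egr1cKO replicates 1 and 2.

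No paired analysis was possible because the numbers in the titles are unique to a library and the groups share none. With 5 to 206 counts of S100b per library, depth limits that gene most.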
